A study of Mus musculus with 14 samples.

Results

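The genes described here build and load MHC class II molecules: the peptide-binding chains H2-Aa, H2-Ab1 and H2-Eb1, the invariant chain Cd74, the peptide exchange subunits H2-DMa and H2-DMb1, and Ciita, the transcriptional co-activator of the class II genes. They were named by their place in the pathway and not by a threshold on a measured value, though with earlier results of these data known, and they are 7 of the 24556 genes in the deposited expression table. All 7 were among the 11886 genes that passed a filter on low values, an unlogged value of at least 10 in at least 3 libraries, and could be tested.

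Expression was measured by RNA sequencing in F4/80-positive cells, taken with magnetic beads from tumours that the mouse mammary carcinoma line 4T1 had formed in the fat pad of Balb/c mice. The tumour cells, not the mice, had been treated: before injection they spent 5 days in culture with the solvent DMSO or with the compound GSK269962A at 5 µM. The cells were taken 8 days after injection (3 libraries per pre-treatment) or 14 days after it (4 per pre-treatment), and "DMSO" and "GSK" below name the pre-treatment of the tumour cells. All groups share the 4T1 line, the host strain and the bead selection. The labels give the mice no age and do not tie each library to its own mouse, so the p-values measure the spread between these libraries, which may be technical. These are bulk samples, in which fewer cells of a type and less RNA per cell cannot be told apart.

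MHC class II molecules show peptides from taken-up material to CD4+ T cells. The alpha and beta chains (H2-Aa with H2-Ab1, and the E beta chain H2-Eb1 with its own alpha chain) assemble on the invariant chain, which blocks the groove until endosomal proteases such as cathepsin S cut it down to a short peptide, and H2-DM then exchanges that peptide for others. Transcription depends on Ciita, which does not bind DNA itself but docks on factors held at paired promoter elements, the X box bound by the RFX complex and the Y box bound by NF-Y, and which interferon gamma induces in macrophages.

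The paired promoter elements are shown because the text returns to their binding factors. RefSeq windows of 4 of the 7 members were examined and 3 held the pair. H2-Ab1, Cd74 and Ciita were not examined. The stretches come from the RefSeq promoter table of GRCm38.p6, are written 5′ to 3′ on the gene's own strand, and have in capitals GNAACT, a core of the X box, and ATTGG, the reverse complement of the CCAAT core of the Y box. The H2-Aa stretch is chr17:34287852-34287929 on the minus strand, that of H2-Eb1 is chr17:34305751-34305827 on the plus strand, and that of the non-member H2-Eb2 is chr17:34325518-34325594 on the plus strand.
H2-Aa: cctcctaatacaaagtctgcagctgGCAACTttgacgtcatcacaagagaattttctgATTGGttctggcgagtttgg
H2-Eb1: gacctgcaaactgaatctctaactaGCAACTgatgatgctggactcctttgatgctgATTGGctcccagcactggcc
H2-Eb2: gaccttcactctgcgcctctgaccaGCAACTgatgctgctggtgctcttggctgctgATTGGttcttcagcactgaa

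In the H2-Eb1 stretch GCAACT begins 91 bases before the RefSeq gene start and ATTGG 59 bases before it. In H2-Aa the distances were 81 and 48 bases. H2-DMb1 holds GTAACT 94 bases and ATTGG 61 bases before its RefSeq start. This pair of H2-DMb1 lies inside the gene as GENCODE annotates it, and those of H2-Aa and H2-Eb1 do not. No GNAACT followed by ATTGG after 32 or 33 bases, start to start, was found in either window of H2-DMa. Of 32851 windows, each from 250 bases before to 50 bases after a gene start, 34 held the pair on either strand (0.104%), whereas ATTGG or CCAAT alone was in 37.4%. The letters and the spacing were set after the class II promoters had been seen, so the match describes these promoters and is no test. H2-Eb2 carries the same pair, yet its values lay between -0.15 and 0.11 on the log2 scale over all 14 libraries.

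H2-Aa (chr17:34282744-34287823), H2-Ab1 (chr17:34257689-34269419), H2-Eb1 (chr17:34305867-34316674), H2-DMa (chr17:34119541-34139101) and H2-DMb1 (chr17:34153072-34160230) lie together on chromosome 17 of GRCm38, in the GENCODE M21 annotation. Ciita lies on chromosome 16 (chr16:10480059-10528418) and Cd74 on chromosome 18 (chr18:60803848-60812652). H2-DMb1 shared 31.4% of the 31-base words of its transcripts with another gene, its neighbour and near copy H2-DMb2, so reads of these genes may have been split between them. H2-DMa overlaps Brd2 on the opposite strand and shared 9.23% of its words with it, Ciita overlaps Dexi on the opposite strand, and H2-Eb1 overlaps Gm20513. Whether counting used strand is not given in the sources used here. Brd2 was itself higher in the GSK groups, with values of 8.72 to 8.83 in the DMSO and 9.12 to 9.26 in the GSK libraries of day 8, and 8.69 to 9.16 against 9.45 to 9.86 on day 14. Its part in the H2-DMa values was not tested. Gm20513 stayed between -1.27 and -1.19. Dexi had 3.82 to 4.00 in the DMSO and 3.90 to 4.37 in the GSK libraries of day 8. On day 14 Dexi had 3.88 to 4.38 with DMSO and 4.39 to 4.63 with GSK. The part of Dexi in the Ciita values was not tested.

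The libraries fall into 2 kinds by a ribosomal RNA measure, whose origin the labels do not give. In 9 of them the ribosomal RNA gene AY036118 was far above Gm42418, which overlaps it on the opposite strand, and in 5 it was the reverse. The Gm42418-high libraries were DMSO day 8 libraries 1 and 3, GSK day 8 library 1, and DMSO day 14 libraries 2 and 4. All 4 GSK day 14 libraries were AY036118-high, so the kind moves with the groups. As a term of its own beside the groups, it was associated with 41 of the 11886 genes and with none of the members after adjustment. The largest of its differences among the members were higher values in AY036118-high libraries for H2-Eb1 (log2 0.52 ± 0.17 SE, limma adjusted p = 0.199) and H2-DMa (0.52 ± 0.13, 0.11) and lower ones for H2-DMb1 (-0.46 ± 0.16, 0.214). Values with this term and within each kind therefore stand beside the results below. Brd2, which overlaps H2-DMa, had 8.83 to 9.86 in AY036118-high and 8.69 to 9.18 in Gm42418-high libraries. Dexi, which overlaps Ciita, had 4.00 to 4.63 and 3.82 to 4.22 in these kinds. Whether their differences go with the kind or with the pre-treatment was not tested.

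The fraction had the markers of macrophages. Csf1r, the receptor that macrophages need for survival, lay between 11.20 and 12.53 over all libraries. Markers of other class II-bearing cells ranged widely. Of the dendritic cell list, Flt3, Clec9a and Dpp4 did not exceed 1.49 in any library, whereas Itgax (9.84 to 10.99), Clec10a (9.85 to 11.71), Batf3 (7.69 to 10.07), Cd24a (7.86 to 9.29) and Fscn1 (6.76 to 9.01) were well above them. Of the B and plasma cell list, Cd79a and Pax5 did not exceed 1.73, whereas Ighm (4.64 to 6.15), Igkc (4.04 to 5.69) and Cd79b (4.30 to 5.44) were higher. The log2 of the summed 14 dendritic cell markers was 12.26 to 12.47 in DMSO day 8, 12.40 to 12.49 in GSK day 8, 11.94 to 12.30 in DMSO day 14 and 11.88 to 12.10 in GSK day 14. The same sum over 9 B and plasma cell markers was 6.65 to 6.97, 7.02 to 7.12, 7.07 to 7.61 and 7.02 to 7.27 in those groups. That of the 12 macrophage markers was 17.42 to 17.61, 16.96 to 17.42, 17.03 to 17.84 and 16.84 to 17.18. The largest term of this last sum was C1qa, with group means of 17.07, 16.45, 16.78 and 15.93. Taken singly, 7 of the 12 were higher with GSK on day 8 (median log2 change 0.08) and 8 on day 14 (0.39).

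**Figure D1:**
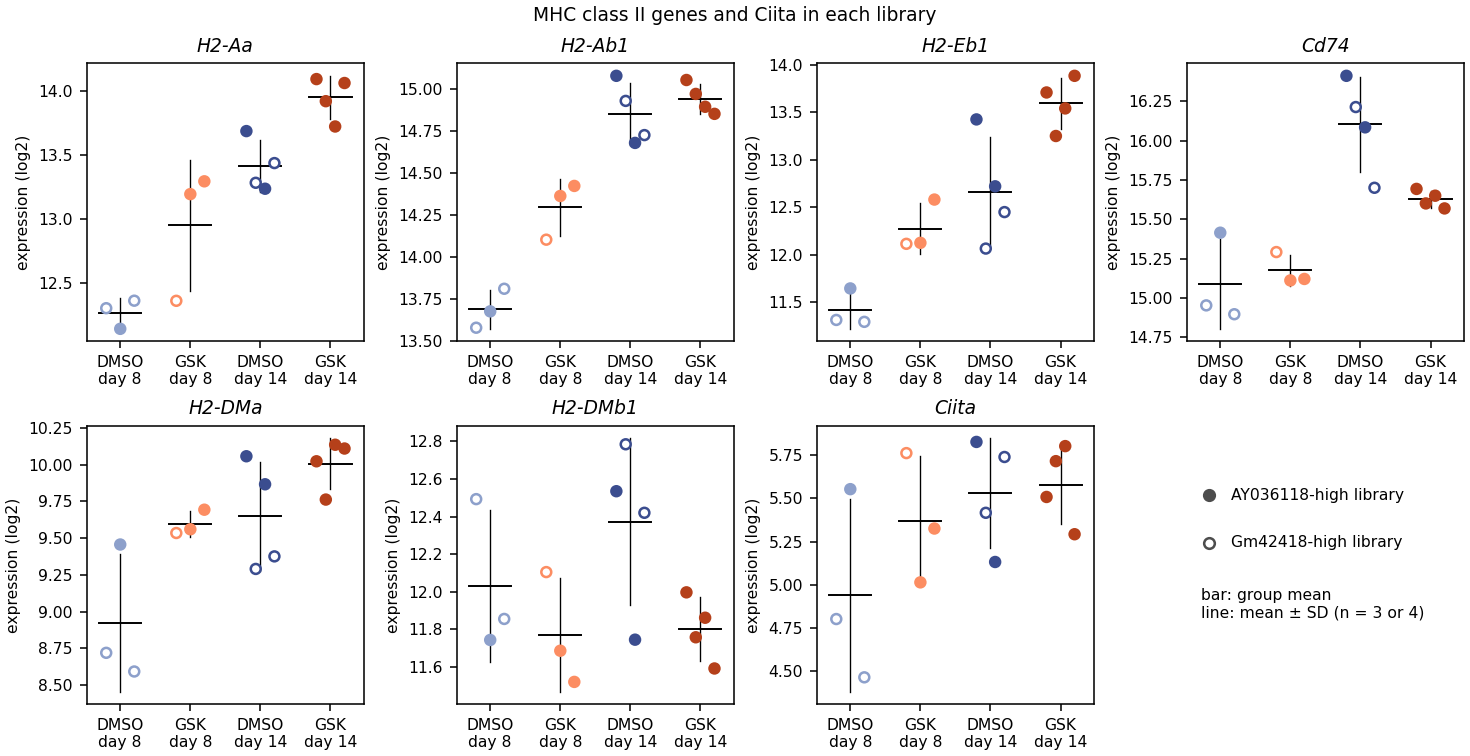
Expression (authors' log2 scale, vertical axis) of each gene in each library of the 4 groups (horizontal axis). Filled points are AY036118-high and open points Gm42418-high libraries, bars are group means and lines the mean ± SD (n = 3 or 4). H2-Aa, H2-Ab1 and H2-Eb1 are lowest in the DMSO day 8 group, and Cd74 is highest in the DMSO day 14 group.

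Levels were compared between genes per kilobase of annotated exon, on the unlogged scale. Cd74 was the most abundant in every group, with 21035 per kilobase in DMSO day 8, 22076 in GSK day 8, 42569 in DMSO day 14 and 30190 in GSK day 14 (group means). H2-Ab1 came second throughout, with 5147, 7861, 11582 and 12264, and no library's range overlapped that of Cd74 or of the gene below it within any group. Ciita was last in every group, with 3.39, 4.43, 4.93 and 5.07, and H2-DMa was next to last with 146, 225, 238 and 300.1. Over all tested genes Ciita's mean level stood at the 29.6th percentile and Cd74's at the 99.9th, without division by length.

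The middle of the order differed between groups. In DMSO day 8 it ran H2-DMb1 (2557 per kilobase), H2-Eb1 (1415) and H2-Aa (1305), and the ranges of H2-Eb1 and H2-Aa overlapped. In GSK day 14 it ran H2-Eb1 (6460), H2-Aa (4182) and H2-DMb1 (2135), with no overlap between neighbours. In GSK day 8 and DMSO day 14 the ranges of neighbours among these 3 genes overlapped. The length used is that of all annotated exons together, which lowers the level of genes with long alternative transcripts, and the mm10 assembly is of a strain whose class II haplotype differs from that of Balb/c. What either does to the order between genes was not tested.

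**Figure D2:**
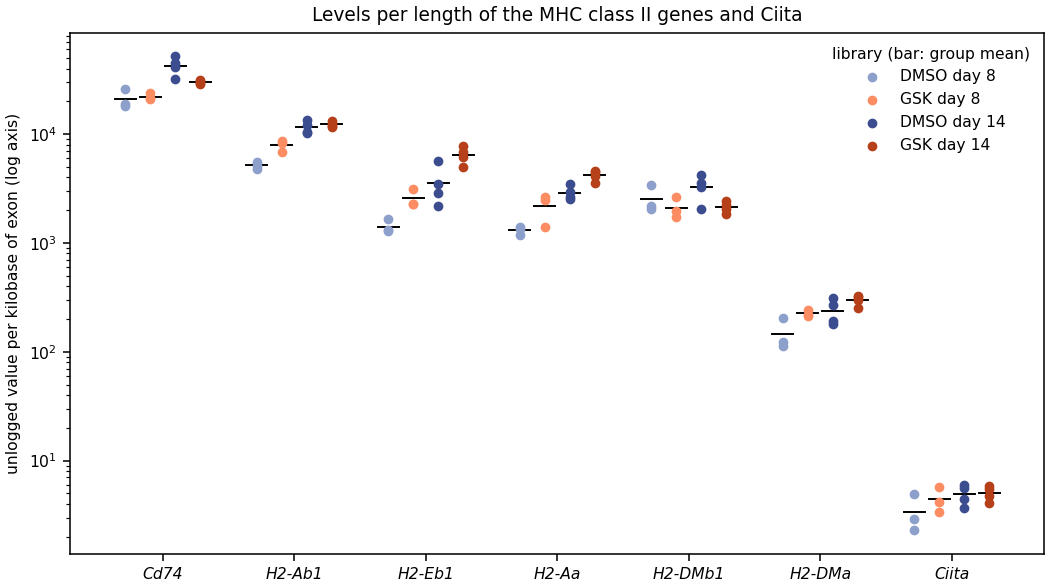
Unlogged value per kilobase of annotated exon (log axis) for each gene, with 1 point per library, bars for group means and colours for the 4 groups. Cd74 and H2-Ab1 are the top 2 genes in each group and Ciita is the lowest, with group means of 3.39 to 5.07 per kilobase.

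The peptide-binding chains come first. H2-Aa, the A alpha chain, had values of 12.31, 12.15 and 12.36 in the DMSO and 12.36, 13.19 and 13.29 in the GSK libraries of day 8. On day 14 it had 13.69, 13.28, 13.24 and 13.44 with DMSO and 14.09, 13.92, 13.72 and 14.06 with GSK. On both days every GSK library but the lowest lay clearly above the DMSO libraries. The lowest GSK library of day 8, library 1, lay level with the DMSO group and is the Gm42418-high one, and on day 14 the lowest GSK library was just above the highest DMSO library.

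H2-Ab1, the A beta chain that pairs with H2-Aa, had 13.58, 13.67 and 13.81 in DMSO day 8 and 14.10, 14.36 and 14.42 in GSK day 8. On day 14 the DMSO libraries had 15.08, 14.93, 14.68 and 14.72 and the GSK libraries 15.05, 14.97, 14.89 and 14.85. The groups were apart on day 8 and lay over each other on day 14. All 8 day 14 libraries were above all 6 day 8 libraries.

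H2-Eb1, the E beta chain, had 11.31, 11.64 and 11.29 in DMSO day 8 and 12.11, 12.13 and 12.58 in GSK day 8. On day 14 it had 13.43, 12.06, 12.72 and 12.45 with DMSO and 13.71, 13.25, 13.54 and 13.89 with GSK. The day 8 groups did not overlap. On day 14 DMSO library 1 reached into the GSK range, and the 2 lowest DMSO libraries were the Gm42418-high ones. Of all members H2-Eb1 had the widest range over the 14 libraries, 2.59 on the log2 scale.

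Cd74, the invariant chain, behaved otherwise. Its values were 14.95, 15.42 and 14.90 in DMSO day 8 and 15.29, 15.11 and 15.12 in GSK day 8, which overlapped. On day 14 they were 16.41, 16.21, 16.08 and 15.70 with DMSO and 15.69, 15.60, 15.65 and 15.57 with GSK. All 4 DMSO libraries of day 14 were above all 4 GSK libraries of that day, the lowest of them by a small margin.

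H2-DMa, the alpha subunit of the peptide exchanger, had 8.72, 9.46 and 8.59 in DMSO day 8 and 9.53, 9.56 and 9.69 in GSK day 8. On day 14 it had 10.06, 9.29, 9.87 and 9.38 with DMSO and 10.02, 9.76, 10.14 and 10.11 with GSK. In both DMSO groups the low libraries were the Gm42418-high ones, and the AY036118-high ones lay within the GSK range or just under it.

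H2-DMb1, its beta subunit, had 12.49, 11.74 and 11.86 in DMSO day 8 and 12.10, 11.69 and 11.52 in GSK day 8. On day 14 it had 12.53, 12.78, 11.74 and 12.42 with DMSO and 12.00, 11.76, 11.86 and 11.59 with GSK. The groups overlapped on both days, and DMSO library 3 lay apart from the other 3 libraries of DMSO day 14, within the GSK range. H2-DMb2, which shares sequence with it, had group means of 10.57, 10.85, 10.43 and 10.07 in the order used above.

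Ciita, the co-activator, had 4.80, 5.55 and 4.46 in DMSO day 8 and 5.76, 5.01 and 5.33 in GSK day 8. On day 14 it had 5.83, 5.42, 5.13 and 5.74 with DMSO and 5.51, 5.72, 5.80 and 5.29 with GSK. The groups overlapped on both days, and the spread was widest within DMSO day 8 (SD 0.56, n = 3).

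The comparison of GSK with DMSO asks whether macrophages differed with the pre-treatment of the tumour cells. On day 8, 0 of the 7 members passed limma's test at an adjusted p of 0.05, against a background of 0.0589% of all tested genes called higher and 0.135% called lower, and 4 of the 7 had an unadjusted p under 0.05, all of them higher. The differences were 0.68 ± 0.21 for H2-Aa (log2 ± SE, adjusted p = 0.141), 0.61 ± 0.16 for H2-Ab1 (0.0934), 0.86 ± 0.27 for H2-Eb1 (0.141) and 0.67 ± 0.23 for H2-DMa (0.165). For Cd74 (0.09 ± 0.19), Ciita (0.43 ± 0.27) and H2-DMb1 (-0.26 ± 0.25) the 95% intervals included 0. The median over the 7 was 0.61, beside 0.02 over all tested genes. Within the Gm42418-high libraries, with 1 GSK library, H2-Aa differed by 0.03 ± 0.21, H2-Eb1 by 0.81 ± 0.23 and H2-DMa by 0.88 ± 0.23. Within the AY036118-high ones, with 1 DMSO library, these genes differed by 1.10 ± 0.23, 0.71 ± 0.32 and 0.17 ± 0.20. In the same order of kinds, H2-Ab1 differed by 0.41 and 0.72 and Ciita by 1.13 and -0.38. Cd74 differed by 0.37 and -0.30, and H2-DMb1 by -0.07 and -0.14. Without GSK day 8 library 1, H2-Aa (0.97, adjusted p = 0.0164) and H2-Ab1 (0.70, 0.045) passed, and without DMSO day 8 library 2, H2-DMa did (0.94, 0.0419).

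On day 14, 1 of the 7 members passed. H2-Eb1 rose by 0.93 ± 0.23 on the log2 scale, a factor of 1.91 (adjusted p = 0.0224, 95% interval 0.44 to 1.43), where 5.1% of all tested genes were called higher and 5.73% lower. H2-Aa (0.54 ± 0.18, adjusted p = 0.0705), Cd74 (-0.47 ± 0.17, 0.0799) and H2-DMb1 (-0.57 ± 0.22, 0.0972) had intervals that excluded 0 and did not pass. The differences of H2-Ab1 (0.09 ± 0.14), Ciita (0.05 ± 0.23) and H2-DMa (0.36 ± 0.20) had intervals that included 0. The median over the 7 was 0.09, beside 0.02 over all tested genes.

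The day 14 call of H2-Eb1 was lost with the ribosomal RNA kind as a term (0.67 ± 0.21, adjusted p = 0.0824), when 0 of the 7 members passed, 3 had an unadjusted p under 0.05 and 1.46% of all tested genes were called higher. It was lost too within the AY036118-high libraries (0.52 ± 0.23, 0.159), where 4.01% of genes were called higher and 3.22% lower, and where Cd74 fell by 0.62 ± 0.15 (0.0373). Leaving out DMSO day 14 library 2 (adjusted p = 0.0742) or 4 (0.0618), or GSK day 14 library 1 (0.0558) or 4 (0.0953), also ended the call, with a change of 0.73 to 0.89. Without DMSO day 14 library 4, Cd74 passed (-0.61, 0.0469), and without library 3 H2-DMb1 did (-0.78, 0.018). H2-Aa passed without GSK day 8 library 1 (0.54, 0.0173), which belongs to neither group compared and enters through the shared variance. There are no GSK day 14 libraries of the Gm42418-high kind, so no value can be given within it.

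Averaged over both days, the chains H2-Aa (0.61 ± 0.14, adjusted p = 0.0115), H2-Ab1 (0.35 ± 0.11, 0.0376) and H2-Eb1 (0.89 ± 0.18, 0.00562) and the subunit H2-DMa (0.52 ± 0.15, 0.0322) rose, which is 4 of 7 where 6.73% of all tested genes were called higher and 7.77% lower. Cd74 (-0.19 ± 0.13, 0.332), H2-DMb1 (-0.41 ± 0.16, 0.0983) and Ciita (0.24 ± 0.18, 0.389) did not pass. With the ribosomal RNA kind as a term 1 of 7 passed, H2-Eb1 (0.68 ± 0.16, 0.0267), where 2.25% of genes were called higher, and H2-Aa had 0.51 ± 0.15 (0.0573), H2-Ab1 0.31 ± 0.11 (0.115) and H2-DMa 0.30 ± 0.12 (0.146). Within the AY036118-high libraries H2-Aa rose by 0.79 ± 0.14 (0.00848) and Cd74 fell by 0.46 ± 0.13 (0.0424), where 6.52% and 5.79% of genes were called higher and lower. H2-Eb1 had 0.62 ± 0.20 there (0.0612), H2-Ab1 0.39 ± 0.13 (0.071) and H2-DMa 0.11 ± 0.12 (0.57).

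Leaving out any 1 library kept the averaged calls of H2-Aa and H2-Eb1. That of H2-Ab1 held when DMSO day 8 library 3, DMSO day 14 library 1 or the first GSK library of day 8 was left out, and was lost without any 1 of the others (adjusted p of 0.0508 to 0.107). That of H2-DMa was lost on leaving out library 1 or 3 of DMSO day 8, 2 or 3 of GSK day 8, 2 or 4 of DMSO day 14, or 1, 3 or 4 of GSK day 14 (0.0539 to 0.0822). H2-DMb1 passed without GSK day 8 library 1 (-0.50, 0.0489) or DMSO day 14 library 3 (-0.52, 0.0221).

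Cell type markers passed in the same comparisons. Averaged over days, of 10 tested dendritic cell markers Itgax (0.42 ± 0.13, limma adjusted p = 0.0447) and Ccr7 (0.44 ± 0.13, 0.0413) rose and Clec10a fell (-0.45 ± 0.14, 0.0364). Of 12 macrophage markers Adgre1, which encodes F4/80 (0.49 ± 0.16, 0.0489), and Tyrobp (0.64 ± 0.18, 0.0256) rose, and Itgam (-0.76 ± 0.13, 0.00233) and C1qa (-0.74 ± 0.20, 0.0247) fell. On day 14, 4 of the 12 rose and 2 fell, and Clec10a (-0.64 ± 0.18, 0.0322) and the immunoglobulin gene Igkc (-0.57 ± 0.17, 0.0476) fell. On day 8 the epithelial keratin Krt14 rose (1.37 ± 0.25, 0.0361). Their part in the members' differences was not tested.

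No difference between the day 14 and day 8 effects passed for the 7 members (limma adjusted p of 0.548 to 0.967), where 0.00841% of all tested genes were called higher and 0.0% lower, and 2 members had an unadjusted p under 0.05. These were H2-Ab1 (-0.52 ± 0.21, 95% interval -0.96 to -0.07) and Cd74 (-0.56 ± 0.26, -1.11 to -0.01).

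**Figure D3:**
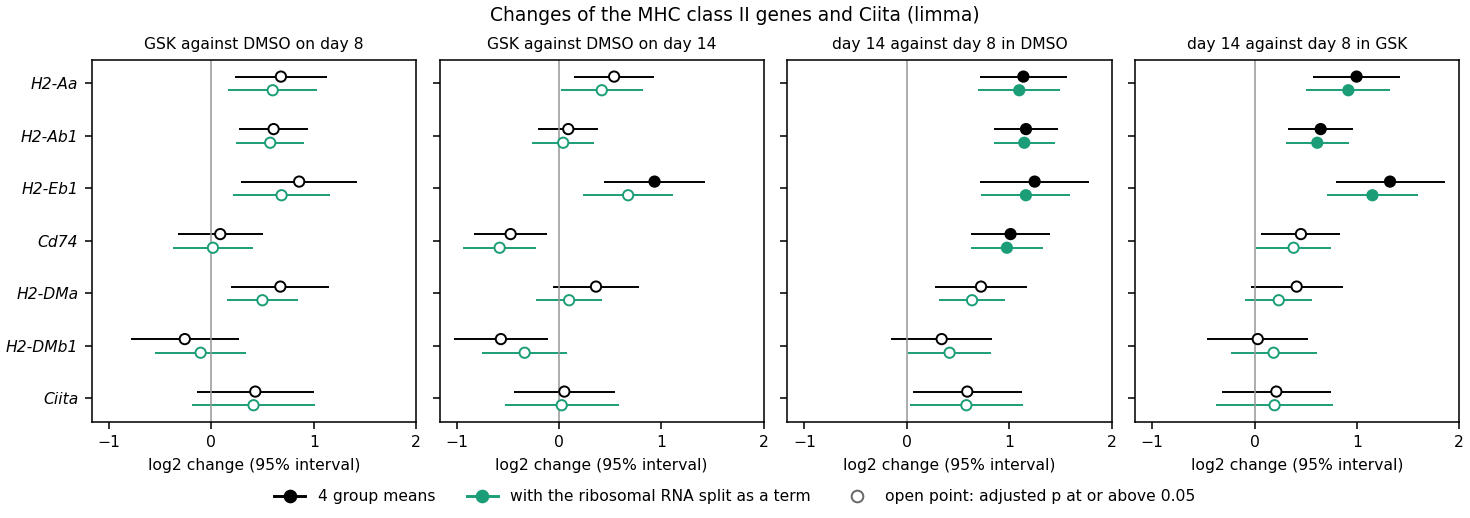
Log2 change (horizontal axis, 95% interval as a line) of each gene in 4 comparisons, from limma with 4 group means (black) and with the ribosomal RNA kind as a further term (green). Filled points passed an adjusted p of 0.05. The day 14 call of H2-Eb1 between pre-treatments is filled in black only, and the calls between days are filled under both fits.

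The comparison of day 14 with day 8 asks how the class II genes differed with tumour age. It shares its libraries with the comparisons above, so their values are not independent. In the DMSO groups H2-Ab1 rose by 1.16 ± 0.15 (factor 2.24, adjusted p = 0.00266), H2-Aa by 1.14 ± 0.20 (2.20, 0.0173), H2-Eb1 by 1.25 ± 0.25 (2.38, 0.0346) and Cd74 by 1.01 ± 0.18 (2.02, 0.0188). These are 4 of 7 members, where 0.303% of all tested genes were called higher and 0.522% lower. H2-DMa (0.72 ± 0.21, 0.118), Ciita (0.59 ± 0.25, 0.277) and H2-DMb1 (0.34 ± 0.23, 0.503) did not pass. The median over the 7 was 1.01, beside 0.00 over all tested genes.

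With the ribosomal RNA kind as a term the same 4 members passed (adjusted p of 0.00233 to 0.0188), where 0.328% of genes were called higher. Within the AY036118-high libraries, with 1 DMSO day 8 library, the changes were 1.20 ± 0.21 for H2-Ab1, 1.32 ± 0.23 for H2-Aa, 1.43 ± 0.32 for H2-Eb1 and 0.83 ± 0.21 for Cd74. Within the Gm42418-high libraries they were 1.13 ± 0.19, 1.02 ± 0.17, 0.95 ± 0.19 and 1.03 ± 0.23. In neither kind alone did a member pass, where 0.168% of genes were called higher among the AY036118-high libraries, and 0.0% higher and 0.00841% lower among the Gm42418-high ones, so that almost no gene passed there, and 5 and 6 of the 7 had an unadjusted p under 0.05. Without DMSO day 8 library 1 or library 3, H2-Ab1 alone still passed, and H2-Aa had adjusted p of 0.0522 and 0.0623, H2-Eb1 0.102 and 0.0956, and Cd74 0.0828 and 0.0757. H2-Eb1 was also lost without DMSO day 14 library 3 (0.0844), GSK day 8 library 2 (0.0508) or GSK day 14 library 1 (0.0549) or 3 (0.056), and Cd74 without DMSO day 14 library 2 (0.0512). H2-DMa passed without DMSO day 8 library 2 (0.99, 0.0233). Igkc also rose in this comparison (1.00 ± 0.19, limma adjusted p = 0.0276). Of 10 tested 4T1 epithelial markers Cldn7 passed and fell (-1.19 ± 0.25, 0.0377). The median change of the 10 was -0.54, and 1 of them was positive. The log2 of the sum over the list of 11 was 11.19 to 11.55 in DMSO day 8 and 10.38 to 11.02 in DMSO day 14. The part of these genes in the members' changes was not tested.

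In the GSK groups H2-Eb1 rose by 1.32 ± 0.25 (factor 2.50, adjusted p = 0.00986), H2-Aa by 1.00 ± 0.20 (2.00, 0.0112) and H2-Ab1 by 0.65 ± 0.15 (1.57, 0.022), 3 of 7 members where 3.05% of all tested genes were called higher and 3.95% lower. Cd74 (0.45 ± 0.18, 0.135), H2-DMa (0.41 ± 0.21, 0.241), Ciita (0.21 ± 0.25, 0.64) and H2-DMb1 (0.03 ± 0.23, 0.95) did not pass. The same 3 passed with the ribosomal RNA kind as a term, where 1.68% of genes were called higher. Within the AY036118-high libraries H2-Eb1 (1.24 ± 0.23, 0.0232) and H2-Aa (0.70 ± 0.16, 0.0497) passed, where 1.14% of genes were called higher, and H2-Ab1 had 0.55 ± 0.15 (0.0827). Without GSK day 8 library 1, the Gm42418-high library of its group, none of the 3 passed (H2-Eb1 1.24, 0.0528; H2-Aa 0.70, 0.0561; H2-Ab1 0.55, 0.123). The call of H2-Ab1 was also lost without GSK day 8 library 2 (0.0559) or GSK day 14 library 1 (0.065), 2 (0.0515) or 4 (0.0516). The 4T1 epithelial markers moved with this comparison too: of 10 tested, 7 fell. The log2 of the sum over the list of 11 was 10.83 to 11.94 in GSK day 8 and 10.26 to 10.74 in GSK day 14. Cdh1, the highest of the list by group mean, had 10.34 and 10.32 in these groups, while Krt18 fell (-2.95 ± 0.42, limma adjusted p = 0.00198). Of 10 tested dendritic cell markers 4 fell, Clec10a (-1.14 ± 0.19, 0.00482), Batf3 (-1.13 ± 0.26, 0.0228), Fscn1 (-1.54 ± 0.25, 0.00472) and Siglech (-0.54 ± 0.15, 0.0455), as did Ebf1 of B cells (-0.69 ± 0.20, 0.046), and the macrophage marker Lyz2 rose (1.26 ± 0.23, 0.00826). Their part in these changes was not tested.

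The members did not keep the same proportions. The log2 ratio to H2-Ab1 within a library does not depend on the scaling of that library and was compared by an exact permutation test over 1400 regroupings within days, adjusted over 6 ratios. The ratio of Cd74 was 1.38, 1.74 and 1.09 in DMSO day 8 against 1.19, 0.75 and 0.70 in GSK day 8, and 1.33, 1.29, 1.41 and 0.98 against 0.64, 0.63, 0.76 and 0.72 on day 14. On day 8 GSK library 1 lay between the 2 lowest DMSO libraries, and on day 14 the groups did not overlap. The ratio was lower by 0.54 in the GSK groups on the mean of both days (exact permutation p = 0.00286, adjusted p = 0.00857).

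The ratio of H2-DMb1 to H2-Ab1 was lower in the GSK groups by 0.76 (exact permutation p = 0.00143, adjusted p = 0.00857). Its values were -1.08, -1.93 and -1.95 against -2.00, -2.68 and -2.90 on day 8, and -2.54, -2.14, -2.93 and -2.30 against -3.06, -3.21, -3.03 and -3.26 on day 14. The groups did not overlap on either day. The ratio of H2-Eb1 was higher by 0.55 (exact permutation p = 0.01, adjusted p = 0.02), from group means of -2.27 to -2.02 on day 8 and of -2.19 to -1.34 on day 14, with overlap on both days. The ratios of H2-Aa (0.26 higher, adjusted p = 0.09), H2-DMa (0.17 higher, 0.434) and Ciita (difference -0.11, 0.627) did not pass.

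Within the AY036118-high libraries, with 1 DMSO day 8 library, 45 regroupings exist, and the smallest p they can give is 0.0222. The ratio of Cd74 differed there by -0.85 (exact permutation, adjusted p = 0.0444) and that of H2-DMb1 by -0.63 (0.0444), while that of H2-Eb1 differed by 0.23 (0.311) and that of H2-Aa by 0.40 (0.0444). Within the Gm42418-high kind no ratio could be tested on day 14. Leaving out any 1 library kept the difference of Cd74 between -0.62 and -0.46, that of H2-DMb1 between -0.89 and -0.62 and that of H2-Eb1 between 0.43 and 0.64. A ratio shows unequal differences and not which of the genes differed.

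**Figure D4:**
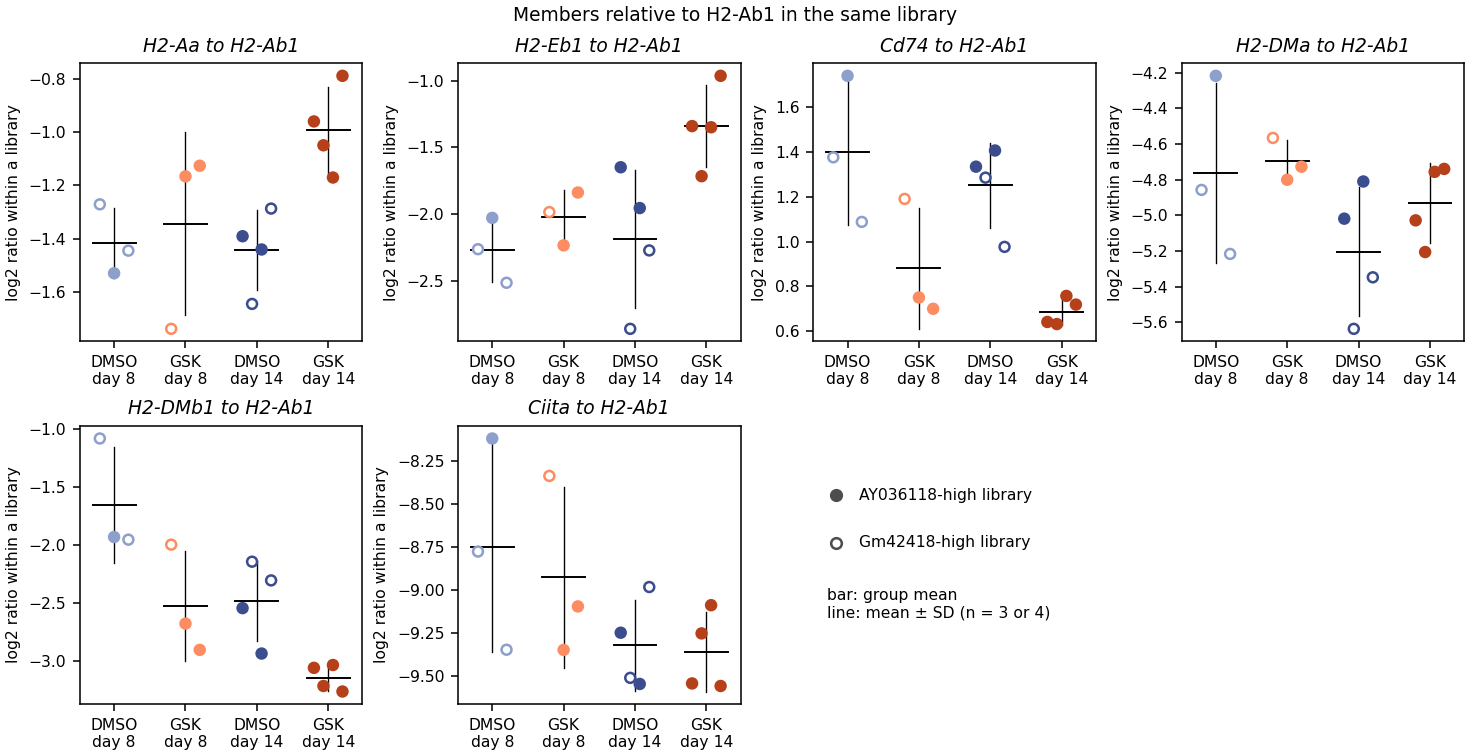
Log2 ratio of each of the other 6 genes to H2-Ab1 in the same library (vertical axis) by group (horizontal axis). Filled points are AY036118-high and open points Gm42418-high libraries, bars are group means and lines the mean ± SD (n = 3 or 4). The Cd74 ratios of the 4 GSK day 14 libraries lie between 0.63 and 0.76, below all DMSO libraries of that day.

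Ciita was set against the other members as deviations from group means over the 14 libraries, with 100000 permutations within groups and adjustment over 6 relations. Pearson's r was 0.50 with Cd74 (permutation p = 0.185, adjusted p = 0.617), 0.42 with H2-DMa (0.308, 0.617), 0.26 with H2-DMb1 (0.489, 0.646), 0.19 with H2-Eb1 (0.538, 0.646), -0.08 with H2-Ab1 (0.803, 0.803) and -0.38 with H2-Aa (0.252, 0.617). Spearman's rho ran from -0.26 with H2-Aa (permutation p = 0.419, adjusted p = 0.837) to 0.62 with Cd74 (0.0773, 0.464), with 0.33 for H2-DMa (0.37, 0.837), 0.21 for H2-DMb1 (0.58, 0.837), 0.11 for H2-Eb1 (0.732, 0.837) and -0.07 for H2-Ab1 (0.837, 0.837). No relation passed. Without DMSO day 8 library 2 and GSK day 8 library 1, which lay farthest from the median, r was 0.07 with Cd74, 0.05 with H2-DMa, 0.56 with H2-DMb1, 0.18 with H2-Eb1, 0.28 with H2-Ab1 and 0.23 with H2-Aa (permutation, adjusted p = 0.934 for each). The depth behind Ciita's values is unknown. Among the AY036118-high libraries r was 0.26 with H2-Aa and 0.74 with H2-Ab1, and neither passed. The only DMSO day 8 library of that kind did not enter, since a group of 1 has no deviation, so these r rest on fewer libraries than those above.

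**Figure D5:**
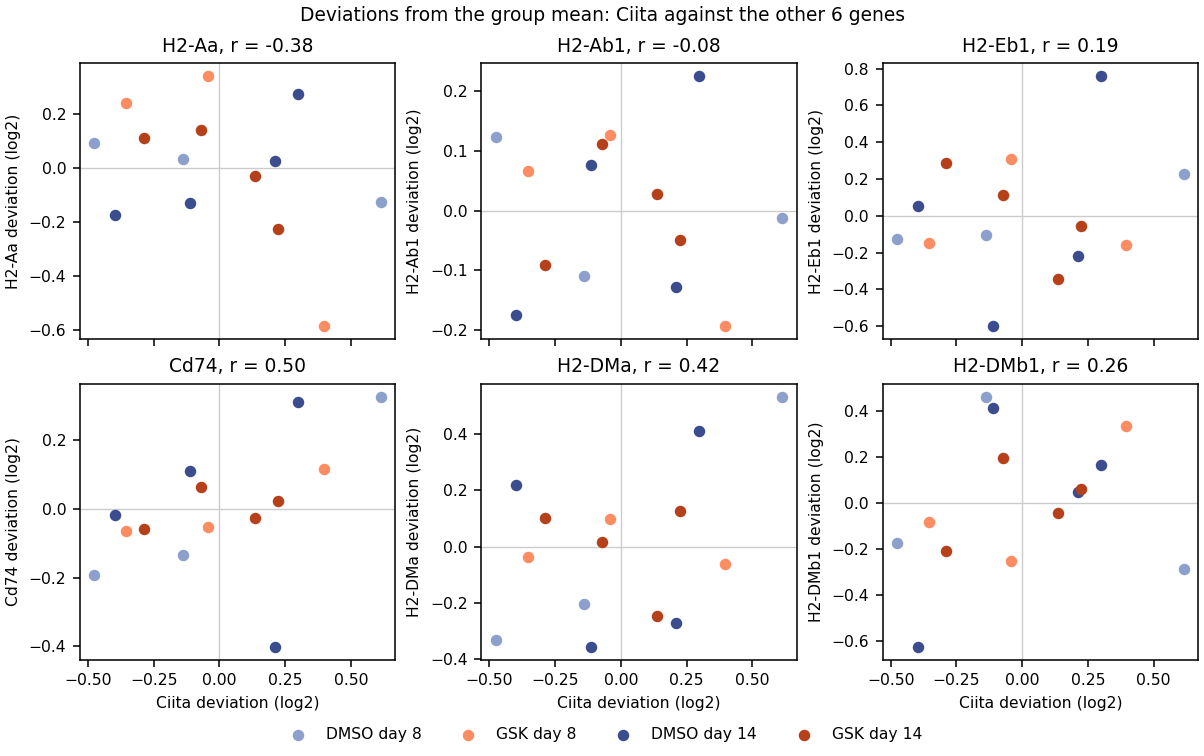
Deviation of each gene from its group mean (log2, vertical axes) against that of Ciita (log2, horizontal axes), with 1 point per library coloured by group and Pearson's r above each panel. The r values run from -0.38 for H2-Aa to 0.50 for Cd74.

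Among the class II genes themselves, the deviations of H2-Eb1 and H2-DMa went together most closely (r = 0.80 over 14 libraries), followed by H2-Aa with H2-Ab1 (0.69) and Cd74 with H2-DMa (0.68). The least were H2-DMa with H2-DMb1 (-0.43), the 2 subunits of 1 molecule, and Ciita with H2-Aa. These r are descriptions over libraries that share group and ribosomal RNA kind.

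The genes whose values over the 14 libraries were most like the mean of the 7 scaled members, of 10522 protein-coding genes, were Axl (r = 0.94), Trpm2 (0.93), Tmem176b (0.93), Naprt (0.90), Stk3 (0.90), Cox18 (0.90), Psap (0.90), Slamf9 (0.89), Mpeg1 (0.89) and Rrad (0.89). Axl is a receptor for apoptotic cells, Psap a lysosomal protein precursor and Mpeg1 a perforin-like protein of phagocytes. Those most like Ciita were Zfp654 (0.86), Itgax (0.86), which encodes the integrin CD11c, Cbarp (0.86), Rtcb (0.86) and Ttll1 (0.81). These r carry no test, since the groups themselves set much of them.

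Other genes of the pathway were taken from 6 lists with 56 tested genes. Between pre-treatments on day 8, 0 of the 56 passed in limma and 11 had an unadjusted p under 0.05, and on day 14, 9 passed (16.1%), where 10.8% of all tested genes were called in either direction. Of 9 peptide loading genes and endosomal proteases, 3 rose on day 14: Ifi30, the thiol reductase of endosomes (1.10 ± 0.25, adjusted p = 0.0158), Ctss, the cathepsin that cuts the invariant chain (0.66 ± 0.15, 0.0161), and Ctsh, another cathepsin (1.09 ± 0.27, 0.0226). Ctss had 13.97 to 14.47 in DMSO day 14 and 14.83 to 15.08 in GSK day 14, without overlap. The median of the 9 was 0.22, beside 0.02 over all tested genes.

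Of 8 genes of class II turnover and trafficking, 2 rose on day 14, the ubiquitin ligase March1, which drives class II degradation (0.60 ± 0.16, 0.0271), and the tetraspanin Cd9 (1.05 ± 0.30, 0.0379), and the vesicle fusion protein Vamp8 fell (-0.82 ± 0.24, 0.0376). Of the 11 genes of the promoter-bound complex, Rfxap, a subunit of the X box factor RFX, rose (0.62 ± 0.15, 0.0196), from 5.07 to 5.68 in DMSO day 14 to 5.90 to 6.08 in GSK day 14. Of 18 genes upstream of Ciita the kinase Jak2 rose (0.65 ± 0.19, 0.0396), and of 7 co-stimulatory and inhibitory ligands Cd86 rose (0.80 ± 0.22, 0.0304). Of 3 other class II genes none passed on that day (2 of 3 were positive). With the ribosomal RNA kind as a term 1 of the 56 passed on day 14, Ifi30 (1.79%, where 3.05% of all genes were called), and within the AY036118-high libraries 4 did, Ifi30, Cd9, Jak2 and Cd86 (7.14%, where 7.24% were called). Both shares are at or under the background.

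Averaged over days, 10 of the 56 passed (17.9%), near the background of 14.5% of all tested genes called in either direction. Ctss (0.62 ± 0.12, adjusted p = 0.00402), Ifi30 (0.81 ± 0.19, 0.0132) and Ctsz, a further cathepsin (0.40 ± 0.12, 0.0345), rose among the loading genes. March1 (0.46 ± 0.12, 0.0199) and the adaptor subunit Ap1m1 (0.54 ± 0.15, 0.0272) rose and Vamp8 fell (-0.87 ± 0.18, 0.00694). Nfyb, a subunit of the Y box factor NF-Y, rose (0.39 ± 0.10, 0.0215), as did Jak2 (0.58 ± 0.15, 0.0157), the signalling inhibitor Socs3 (0.97 ± 0.31, 0.0444) and the ligand Pdcd1lg2 (0.37 ± 0.12, 0.0447). With the ribosomal RNA kind as a term 5 passed (8.93%, where 5.29% of all genes were called), and within the AY036118-high libraries 12 did (21.4%, where 12.3% were called).

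Between days, 0 of the 56 passed in DMSO (7 with an unadjusted p under 0.05) and 7 in GSK (12.5%). Over all tested genes 0.824% were called in either direction in DMSO and 7.01% in GSK. Of those in GSK, Ifi30 (0.97 ± 0.27, 0.0446), Ctss (0.60 ± 0.16, 0.0393), Cd9 (1.21 ± 0.33, 0.0383), Rfxap (0.57 ± 0.16, 0.0457) and Cd86 (0.99 ± 0.23, 0.0252) rose, and H2-DMb2 fell (-0.78 ± 0.17, 0.0151). With the ribosomal RNA kind as a term 3 of the 56 passed there, Cd86, H2-DMb2 and Ifi30 (5.36%, where 3.96% of all genes were called). None of the 56 passed for the difference between the day 14 and day 8 effects (6 with an unadjusted p under 0.05).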

How the data were processed

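RNA of 14 libraries in 4 groups was analysed from 1 table of log2-scale normalised expression values deposited by the authors. Per the submitters' processing notes the tools were Bowtie2, RSEM 1.2.29 and DESeq2 1.12.4 with the builds mm10 and GRCh38, and the transformation to log2 is not stated. If it shrinks low values, changes of low genes such as Ciita are understated. No counts were used here, so depth is unknown and no counting intervals are given. Ensembl identifiers were matched to GENCODE M21 (GRCm38), 24470 of 24556.

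A linear model with 4 group means was fitted with limma 3.58.1 in R 4.3.3, with an empirical Bayes trend, to the 11886 genes with an unlogged value of at least 10 in at least 3 libraries. Tests were two-sided, with Benjamini-Hochberg adjustment over all tested genes and a threshold of 0.05, and intervals are 95%. The fit was tested on simulated data. Ratios and correlations used exact or resampled permutations over libraries. Pathway genes are named where they passed, up to 4 per list and comparison. A gene that passed between days in GSK is counted but not reported here. The members and lists were chosen with earlier results of these data known. Alternatives were pseudocounts of 0.1 and 10, no filter, a minimum of 50, quantile normalisation, no trend, only the groups compared, a replicate block, the ribosomal RNA kind as a term or a restriction, and leaving out each library.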

Additional observations from a re-analysis of the deposited data

How the results depend on the processing

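Depth is unknown, and whether it limits these results was not tested. The members' counts past the threshold changed as follows. Without the filter 0 passed on day 14 and 2 averaged over days, with quantile normalisation 2 passed on day 14, and with only the groups compared 2 passed on day 14 and 2 between days in DMSO. The ribosomal RNA kind as a term gave 0 on day 14 and 1 averaged over days. Only AY036118-high libraries gave 2 averaged over days and 0 between days in DMSO, where only Gm42418-high libraries also gave 0. Leaving out 1 library gave 0 to 2 of 7 on day 8, 0 to 2 on day 14, 2 to 5 averaged over days, 0 for the difference between the days' effects, 1 to 5 between days in DMSO and 0 to 3 in GSK. Over all tested genes, calls between pre-treatments on day 14 ran from 105 to 966 higher and from 116 to 916 lower. The causes were not tested.

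Some differences that did not pass turned sign. With quantile normalisation the GSK difference of Ciita on day 14 was -0.0485 and that of Cd74 averaged over days 0.038. Among only AY036118-high libraries it was -0.30 for Cd74 and -0.38 for Ciita on day 8 and -0.14 for Ciita averaged over days, the difference between the days' effects was -0.18 for H2-Eb1 and 0.49 for Ciita, and the change between days in DMSO was -0.0743 for Ciita. Among only Gm42418-high libraries Ciita kept its sign in these comparisons, with 1.13 on day 8, where there is 1 GSK library, and 0.95 between days in DMSO. With the ribosomal RNA kind as a term the difference between effects was -0.0112 for H2-Eb1. Leaving out 1 library, the GSK difference ran from -0.0091 to 0.25 for Cd74 on day 8 and from -0.0815 to 0.15 for Ciita on day 14, the difference between effects from -0.44 to 0.0301 for H2-Aa and from -0.13 to 0.33 for H2-Eb1, and the change between days in GSK from -0.0933 to 0.20 for H2-DMb1.

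The ratio of H2-Aa to H2-Ab1 passed with quantile normalisation (0.38) and among only AY036118-high libraries (0.40), where that of H2-Eb1 (0.23) did not and that of H2-DMa turned to -0.28. Leaving out 1 library, the H2-Aa ratio difference ran from 0.21 to 0.36 and that of Ciita from -0.26 to 0.0482. Without GSK day 8 library 1 the H2-Aa ratio passed (0.36, exact permutation, adjusted p = 0.00571). Among only AY036118-high libraries, without the DMSO day 8 library of that kind, Ciita's r was 0.26 with H2-Aa and 0.74 with H2-Ab1. Leaving out 1 of the 14 libraries, Ciita's r ran from -0.31 to 0.17 with H2-Ab1, -0.0396 to 0.29 with H2-Eb1 and 0.20 to 0.90 with Cd74 (passing without DMSO day 14 library 4). It ran from -0.0176 to 0.59 with H2-DMa and -0.0008 to 0.65 with H2-DMb1.

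The replicate numbers were not used as pairs in the main fit. Same-numbered libraries deviated together with r of -0.34 to 0.52, over 0.1 in 5 of 19 pairs. Libraries with different numbers were not compared, so these r cannot decide whether same-numbered libraries share a batch, and the labels do not say. With the replicate block 2 members passed averaged over days and 2 between days in DMSO. Between days in GSK the call of H2-Ab1 was lost with this block (0.68, limma adjusted p = 0.0521). The remaining counts did not change.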
